A study of Mus musculus with 6 samples.

Results

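The phenylalanine, tyrosine and tryptophan breakdown enzymes of mouse liver and the enzymes that make and recycle their cofactor tetrahydrobiopterin are described here through 9 genes: Tat, Tdo2, Hpd, Hgd, Fah, Gstz1, Gch1, Qdpr and Pcbd1. They were represented by every probe set whose single gene symbol in the platform's gene table was one of these names. The 9 are among 8252 genes named by a single symbol, and they gave 10 probe sets of the 12488 in the table, 1 for each of 8 genes and 2 for Tdo2. All 10 lay above 68.9, the 30th percentile of all intensities and the floor to which lower values were set, on all 6 arrays, and all 10 were tested. Values are linear intensities that the authors had scaled array by array, and fold changes are of their log2. The study compared livers of mice of the inbred laboratory strain C57BL/6 after 12 weeks on 1 of 2 diets, with 3 arrays for a high-fat diet of Western style and 3 for a diet low in fat. The keywords of the labels name LDL receptor deficiency, but the descriptions of these arrays give the strain alone, with no sex, age or time of day. The 3 arrays of each diet are named as replicates, and it is not said whether each holds RNA of 1 mouse, so p-values measure the spread between these arrays.

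Phenylalanine that is not used for protein is turned into tyrosine in the liver, with tetrahydrobiopterin as the cofactor. Tyrosine is then taken apart in a chain: Tat moves its amino group, Hpd makes homogentisate from the resulting keto acid, Hgd opens its ring, Gstz1 isomerises the product and Fah splits it into fumarate and acetoacetate. Tryptophan enters the kynurenine pathway through Tdo2. Tat and Tdo2 are the entry enzymes of their pathways and textbook examples of liver genes induced by glucocorticoids. Gch1 is the entry enzyme of tetrahydrobiopterin synthesis, while Pcbd1 and Qdpr regenerate the spent cofactor. Loss of these enzymes in people causes known metabolic diseases, among them alkaptonuria (Hgd), tyrosinemia (Fah, Tat and Hpd) and forms of high blood phenylalanine (Gch1, Qdpr and Pcbd1).

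The 3 genes whose high-fat and low-fat arrays did not overlap, Gch1, Tat and Tdo2, are the entry enzymes, and the 250 bases before the start of each are shown so that their promoters can be compared. The sequences are those of RefSeq in build GRCm38.p6, 5′ to 3′ on the strand of the gene, and end at the base before the annotated start. Capitals mark matches, on either strand, to 5 short strings of letters: TGTTCT, the core of a glucocorticoid receptor site; TGACG, the core of a cAMP response element; CACGTG, the E-box; CCAAT, the CCAAT box; and TATAAA, the TATA box. None of these strings overlaps another in the 3 windows.
Gch1 (chr14:47189414-47189663, minus strand): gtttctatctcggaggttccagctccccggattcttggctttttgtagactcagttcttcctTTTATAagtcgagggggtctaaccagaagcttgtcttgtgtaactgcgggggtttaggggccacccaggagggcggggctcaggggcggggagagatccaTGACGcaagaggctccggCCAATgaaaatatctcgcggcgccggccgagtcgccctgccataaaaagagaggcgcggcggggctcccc
Tat (chr8:109990186-109990435, plus strand): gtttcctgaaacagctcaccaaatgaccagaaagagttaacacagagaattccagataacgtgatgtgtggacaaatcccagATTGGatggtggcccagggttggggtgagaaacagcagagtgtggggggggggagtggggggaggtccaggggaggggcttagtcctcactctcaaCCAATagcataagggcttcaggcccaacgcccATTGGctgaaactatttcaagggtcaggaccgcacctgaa
Tdo2 (chr3:81975729-81975978, minus strand): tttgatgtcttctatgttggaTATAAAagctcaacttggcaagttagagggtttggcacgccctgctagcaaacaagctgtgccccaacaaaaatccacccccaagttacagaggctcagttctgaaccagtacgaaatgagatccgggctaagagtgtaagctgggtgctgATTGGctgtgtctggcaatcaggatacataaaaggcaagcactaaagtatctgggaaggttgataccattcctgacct

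In the Gch1 window TGACG began 88 bases and CCAAT 70 bases before the start, with TATAAA letters, on the opposite strand, at 188 bases. Tat held CCAAT letters at 168, 72 and 40 bases before its start and none of the other strings. Tdo2 held CCAAT letters at 78 bases and TATAAA at 229 bases. Of the 10 windows of the 9 genes, of which Gstz1 has 2, 7 held CCAAT, against 33.8% of all 32851 windows in the RefSeq table. TGACG stood in the Gch1 window and in 1 of the Gstz1 windows, against 17.8% of all windows. TATAAA letters stood in 4 of the 10, against 12.4% of all. They began 139 bases before the start in Hgd, 188 in Gch1, 229 in Tdo2 and 250 in Pcbd1, so none was close to it. Only the Tdo2 match was on the strand of the gene. Whether any of them works as a TATA box was not tested. TGTTCT was in 0 of the 10 windows, against 16.1% of all, and CACGTG in 0, against 6.02%. The missing strings say only that these letters are not in the 250 bases searched. The windows differ in base composition, with 59.2% G and C for Gch1, 53.6% for Tat and 46.4% for Tdo2, where the median of all windows is 52.4%.

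Gch1, the GTP cyclohydrolase that opens tetrahydrobiopterin synthesis, was the member that fell on the high-fat diet. The intensity of its probe set, 102313_at, was 1114, 851 and 1072 on high-fat arrays 1, 2 and 3, against 2172, 1996 and 2415 on low-fat arrays 1, 2 and 3. Every high-fat array lay below every low-fat array, and the highest high-fat value was 55.8% of the lowest low-fat value. The high-fat mean was 1012 ± 141 and the low-fat mean 2194 ± 211 (SD, n = 3 each). The log2 fold change, high-fat minus low-fat, was -1.12 ± 0.14 (SE), a 2.18-fold lower level with a 95% interval from 1.74-fold to 2.73-fold. Limma's test across all probe sets gave an adjusted p of 0.0102, past the threshold of 0.05. By p-value Gch1 was number 23, and by size of fall number 71, of 8950 tested probe sets. In all, 0.827% of tested probe sets passed, and 0.425% passed as lower on the high-fat diet, against 1 of the 10 member probe sets. The call was lost without low-fat array 1, where the log2 fold change was -1.13 and the adjusted p 0.0504. It was also lost without the filter on dim probe sets (adjusted p = 0.137) and with a variance model that ignores intensity (0.0728). In liver tissue, fewer cells that carry a transcript and less transcript per cell cannot be told apart.

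**Figure D1:**
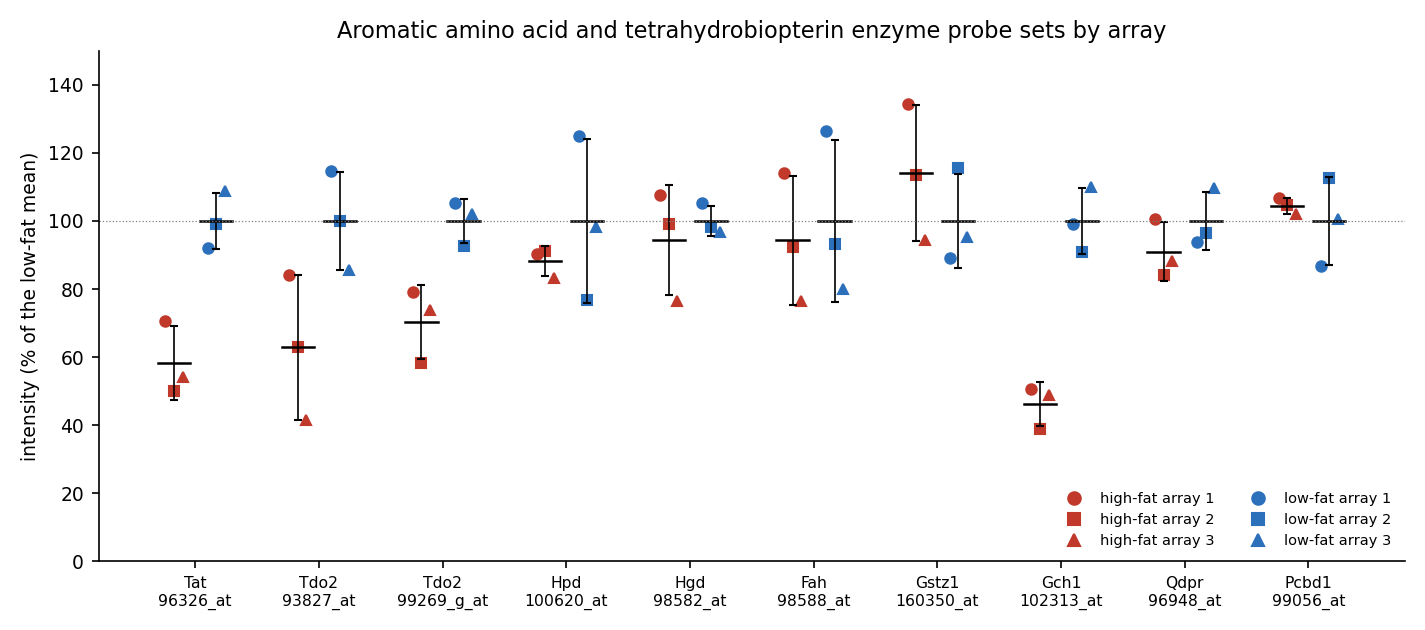
Intensity of each of the 10 probe sets on each array, as a percentage of that probe set's low-fat mean, with high-fat arrays in red on the left and low-fat arrays in blue on the right of each pair; bars give the mean and SD (n = 3). Gch1 stood at 50.8%, 38.8% and 48.9% on high-fat arrays 1, 2 and 3, and the arrays of the diets also did not overlap for Tat and for both Tdo2 probe sets.

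The enzymes that recycle the cofactor did not follow Gch1 past the test. Qdpr, the dihydropteridine reductase, had intensities of 13089, 10916 and 11474 on the high-fat arrays, against 12205, 12534 and 14252 on the low-fat arrays. These values overlapped, and the log2 fold change was -0.14 with a 95% interval from -0.44 to 0.17 (adjusted p = 0.860). Pcbd1 encodes the pterin carbinolamine dehydratase, which is also known as a dimerization cofactor of the liver transcription factor HNF1. Its intensity was 6044, 5916 and 5779 on the high-fat arrays, against 4916, 6373 and 5682 on the low-fat arrays. All 3 high-fat values lay inside the low-fat range, and the log2 fold change was 0.07 with an interval from -0.21 to 0.36 (adjusted p = 0.940). Both intervals lie wholly above that of Gch1, which ran from -1.45 to -0.80.

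The difference between the steps was also taken within each array, a comparison chosen after the values were seen. The log2 value of Gch1 less that of Qdpr, set to a low-fat mean of 0, was -0.99, -1.11 and -0.85 on the high-fat arrays, against 0.08, -0.08 and 0.01 on the low-fat arrays. For Gch1 less Pcbd1 it was -1.08, -1.44 and -1.07 on the high-fat arrays, against 0.18, -0.31 and 0.13 on the low-fat arrays. Neither difference overlapped between the diets. The diets already did not overlap for Gch1 alone, so the differences add no separate support. They are given as a description, with no test.

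Tat, the aminotransferase that starts tyrosine breakdown, was lower on the high-fat diet without passing the test. The intensity of its probe set, 96326_at, was 13797, 9815 and 10582 on the high-fat arrays, against 18010.4, 19399.7 and 21258 on the low-fat arrays. The diets did not overlap, with the highest high-fat value at 76.6% of the lowest low-fat value. The high-fat mean was 11398 ± 2112 and the low-fat mean 19556 ± 1629 (SD, n = 3 each). The log2 fold change was -0.79 ± 0.16 (SE), with a 95% interval from -1.16 to -0.43, and limma's adjusted p was 0.0742. Tat did pass under several of the other settings. The adjusted p was 0.0394 after quantile normalization, 0.0440 with a floor at the 50th percentile, 0.0471 when all 6 arrays had to lie above the floor, 0.0432 with robust variance estimation and 0.0265 without high-fat array 1. High-fat array 1 was the highest of its diet for Tat. Over all settings tried its adjusted p ran from 0.0265 to 0.329 and its log2 fold change from -0.94 to -0.68.

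Tdo2, the tryptophan dioxygenase that opens the kynurenine pathway, was read by a pair of probe sets that gave the same direction. The first, 93827_at, had intensities of 6219.7, 4650.2 and 3074 on the high-fat arrays, against 8459.8, 7374 and 6322 on the low-fat arrays. Its diets were separated by little, with the highest high-fat value at 98.4% of the lowest low-fat value. The log2 fold change was -0.72 ± 0.24 (SE, adjusted p = 0.362). The second, 99269_g_at, had intensities of 19956, 14664 and 18613 on the high-fat arrays, against 26555, 23378 and 25714 on the low-fat arrays. Here the highest high-fat value was 85.4% of the lowest low-fat value, and the log2 fold change was -0.52 ± 0.16 (SE, adjusted p = 0.319). Their 95% intervals, from -1.25 to -0.18 and from -0.88 to -0.15, overlapped over most of their length.

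The probe sets of Tdo2 disagreed on single arrays. The ratio of 99269_g_at to 93827_at was 3.21, 3.15 and 6.06 on high-fat arrays 1, 2 and 3, against 3.14, 3.17 and 4.07 on low-fat arrays 1, 2 and 3. Array 3 had the highest ratio of each diet, and the other 4 arrays lay within a narrow band. The same arrays had the lowest 3′ to 5′ ratio of the Gapdh control probe sets, at 0.89 on high-fat array 3 and 0.82 on low-fat array 3. The remaining ratios were 1.22 and 1.23 on high-fat arrays 1 and 2 and 1.04 and 1.07 on low-fat arrays 1 and 2. The 3′ to 5′ ratio of the beta-actin control did not follow that order, at 1.62, 1.96 and 1.79 on high-fat arrays 1, 2 and 3, against 1.63, 1.56 and 1.75 on low-fat arrays 1, 2 and 3. There array 3 was in the middle on the high-fat diet and the highest on the low-fat diet. With the Gapdh ratio as a covariate, the log2 fold change of 93827_at was -0.97 (adjusted p = 0.0291) and that of 99269_g_at was -0.47 (adjusted p = 0.255). With both arrays numbered 3 left out the log2 fold changes of 93827_at and 99269_g_at were -0.55 and -0.54, with adjusted p-values of 0.327 and 0.405. The part of RNA quality in these values was not tested further.

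**Figure D2:**
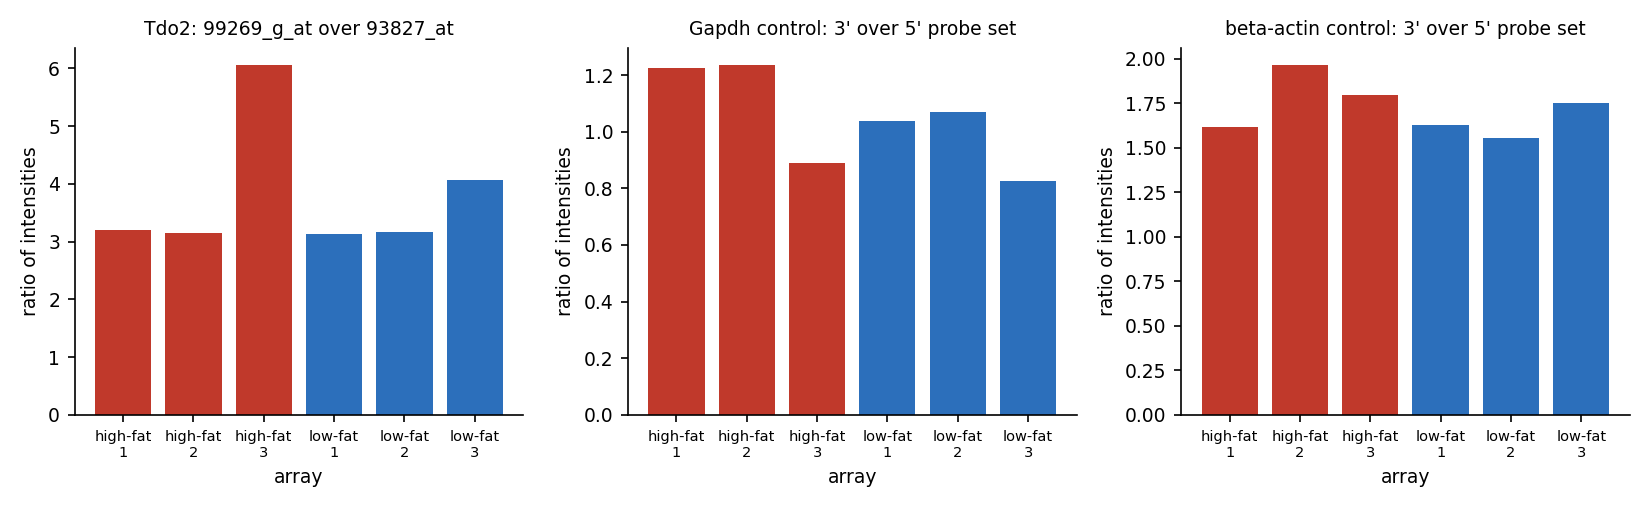
Left, the ratio of the intensities of the Tdo2 probe sets (99269_g_at over 93827_at) on each array; middle and right, the ratio of the 3′ to the 5′ control probe set of Gapdh and of beta-actin on the same arrays, with high-fat arrays in red and low-fat arrays in blue. The Tdo2 ratio was 6.06 on high-fat array 3 and 4.07 on low-fat array 3, the arrays with the lowest Gapdh ratios of their diets, 0.89 and 0.82, while their beta-actin ratios, 1.79 and 1.75, were not the lowest.

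The 4 enzymes that act on tyrosine after Tat overlapped between the diets. Hpd, the hydroxyphenylpyruvate dioxygenase, had intensities of 554, 560.3 and 510.2 on the high-fat arrays, against 767, 472 and 603 on the low-fat arrays. The high-fat values were close together, with a coefficient of variation of 5.02%, and lay inside the low-fat range, whose coefficient of variation was 24.1%. Hgd, the homogentisate dioxygenase, had 9492, 8758 and 6747 on the high-fat arrays, against 9283, 8673 and 8531.5 on the low-fat arrays. Here the wider spread was on the high-fat diet, at 17.1% against 4.52% on the low-fat diet. The log2 fold changes were -0.15 for Hpd (adjusted p = 0.901) and -0.10 for Hgd (adjusted p = 0.922).

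Gstz1, the maleylacetoacetate isomerase, had intensities of 16474, 13908 and 11583 on the high-fat arrays, against 10933, 14154 and 11670.0 on the low-fat arrays. Its log2 fold change of 0.19 was the highest of the 10 probe sets (adjusted p = 0.844). Fah, the fumarylacetoacetate hydrolase that ends the chain, had 17400.0, 14088 and 11642 on the high-fat arrays, against 19281, 14223 and 12209 on the low-fat arrays. Each diet spanned nearly the same range, and the log2 fold change was -0.08 (adjusted p = 0.965). The 95% intervals were -0.60 to 0.29 for Hpd, -0.43 to 0.24 for Hgd, -0.20 to 0.57 for Gstz1 and -0.55 to 0.39 for Fah. They leave room for changes of moderate size in either direction, and the misses do not show that these transcripts were alike on both diets.

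**Figure D3:**
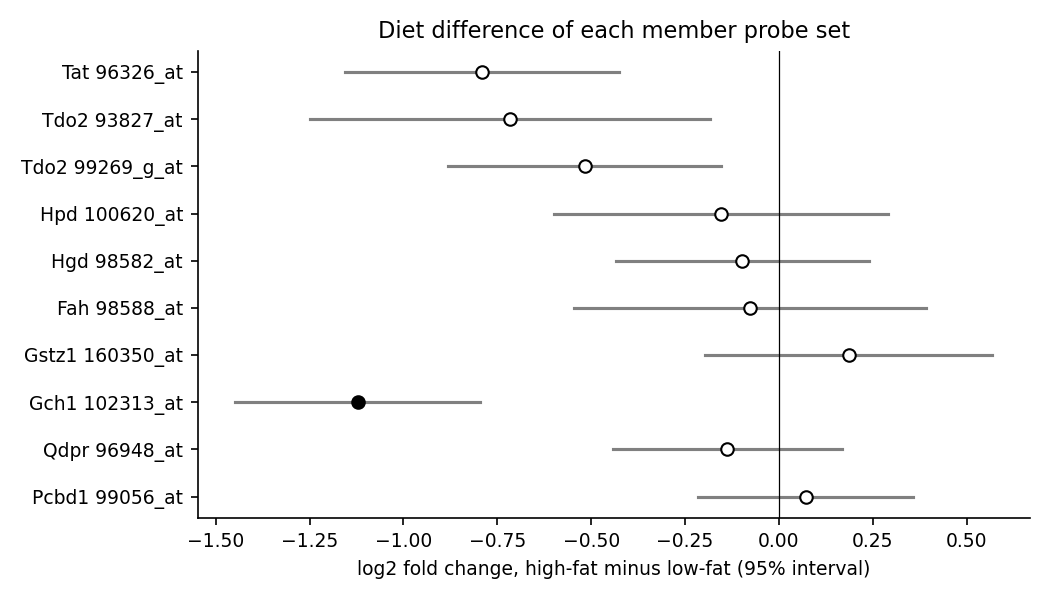
Log2 fold change, high-fat minus low-fat, of each probe set with its 95% interval from limma; the filled point is past an adjusted p of 0.05 and open points are not. Gch1 lay at -1.12, Tat and the Tdo2 probe sets lay between -0.79 and -0.52 with intervals below 0, and the intervals of the other 6 included 0.

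Within arrays, the tyrosine chain was compared with its entry enzyme in the same way as the cofactor enzymes. The log2 value of Tat less that of each later enzyme was lower on the high-fat diet by 0.98 against Gstz1, 0.71 against Fah, 0.69 against Hgd and 0.64 against Hpd on average. The diets did not overlap for Gstz1, Fah and Hgd and overlapped for Hpd. For Fah they were separated by little, at -0.52 on high-fat array 3 against -0.48 on low-fat array 1. The diets already did not overlap for Tat alone, so these differences add no separate support. They too are a description, with no test.

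Counted together, 4 of the 10 probe sets had diets that did not overlap, all lower on the high-fat diet, where 6.76% of all tested probe sets did so. The same 4 had an unadjusted p under 0.05, against 4.26% of all tested probe sets that were lower with such a p. The log2 fold change was below 0 for 8 of the 10, against 49.5% of all tested, with a median of -0.15 against 0.003 over all. These genes were chosen with earlier results of the same arrays known, and 2 of the probe sets share the gene Tdo2, so the counts are a description. Which array was lowest differed between the members. High-fat array 1 was the highest of its diet for 9 of the 10 probe sets, the exception being Hpd. High-fat array 3 was the lowest for 6, among them Hgd, Fah and Gstz1, and high-fat array 2 for the other 4, which were Gch1, Tat, Qdpr and the 99269_g_at probe set of Tdo2. On the low-fat diet the lowest values were spread over the arrays, 4 on array 1 and 3 each on arrays 2 and 3.

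Other genes of the same pathways were followed through lists, with 1 probe set a gene. The lists were chosen with earlier results of these arrays known, so their counts are a description. In the list of other genes of phenylalanine and tyrosine breakdown, 3 were tested, Got2, Dct and Th. Of these 0 passed limma's threshold, where 0.915% of all 6557 tested genes passed. The median log2 fold change was 0.01, the value of Th. Neither Dct nor Th is a step of the breakdown chain described above. An unadjusted p under 0.05 was reached by 0 of the 3, against 9.5% of all tested genes. The 2 with the smallest p were Dct, the melanin pathway tautomerase, at -0.36 (adjusted p = 0.608), and Got2, the mitochondrial aspartate aminotransferase, at 0.02 (adjusted p = 0.986). Got1 and Mif were not above the floor on enough arrays to be tested. Of the other genes of tetrahydrobiopterin synthesis and recycling, 0 of 5 passed and the median was -0.01. Cbr1, a carbonyl reductase, had intensities of 538, 487 and 625 on the high-fat arrays, against 688, 816 and 648 on the low-fat arrays. Its diets did not overlap (log2 fold change -0.38, adjusted p = 0.537). The later enzymes of synthesis, Pts and Spr, had log2 fold changes of -0.01 and 0.01, and Pcbd2, the paralogue of Pcbd1, -0.07 (adjusted p = 0.948). An unadjusted p under 0.05 was reached by 1 of the 5, Cbr1 (0.0465).

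Of the enzymes that use the cofactor, 3 were tested. Limma's threshold was passed by 0 of them, against 0.915% of all tested genes. An unadjusted p under 0.05 was reached by 0, against 9.5%. Nos1, a nitric oxide synthase, was near the floor, at 23.7, 25.2 and 40.5 on the high-fat arrays, all under the floor of 68.9, against 76.8, 78.7 and 84.9 on the low-fat arrays. It was tested through its low-fat values alone, and its fold change is set by the floor, so none is given. For the inducible synthase Nos2 the log2 fold change was -0.03 (adjusted p = 0.994). For the tryptophan and kynurenine pathway the list of other genes named 21 symbols, some of them alternative names. Only 5 were found on the array, and all 5 were tested. Kmo, Kynu and Haao, which act after Tdo2, were not among them, so much of the pathway was not measured. Of the 5, 0 passed limma's threshold, against 0.915% of all tested genes. An unadjusted p under 0.05 was reached by 0 of the 5, against 9.5% of all. Their median log2 fold change was -0.17. Ido1, the dioxygenase that shares the reaction of Tdo2 outside the liver, read 58.3, 197 and 139 on the high-fat arrays, against 461, 126 and 207 on the low-fat arrays. Its diets overlapped (log2 fold change -0.89, adjusted p = 0.712), and its other probe set was under the floor on all 6 arrays. Single arrays and the floor changed the size of that log2 fold change. On high-fat array 1 Ido1 was under the floor of 68.9, at 58.3, and was set to it. The log2 fold change was -0.47 with a floor at the 50th percentile and -0.97 with a floor at the 10th percentile. Leaving out high-fat array 1 gave -0.47, while omitting array 1 of the low-fat diet gave -0.38 and omitting its array 2 gave -1.32. For Gcdh, the glutaryl-CoA dehydrogenase, the log2 fold change was 0.15 (adjusted p = 0.877).

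The breakdown of other amino acids was described by 23 tested genes, of which 0 passed limma's threshold, where 0.915% of all tested genes did. An unadjusted p under 0.05 was reached by 7 of the 23, against 9.5% of all tested genes. The log2 fold change was below 0 for 16 of the 23, with a median of -0.14, where 48.7% of all tested genes were below 0. The diets did not overlap for 7 of the 23, against 14.5% of all tested genes. Of those 7, Cdo1 was higher on the high-fat diet (log2 fold change 0.30, adjusted p = 0.546) and the others were lower. Csad, an enzyme of taurine synthesis, had intensities of 3381.5, 2502 and 2116.5 on the high-fat arrays, against 4499, 4897.5 and 4683.5 on the low-fat arrays. Every high-fat value of Csad was below every low-fat value, with a log2 fold change of -0.84 ± 0.17 (SE, adjusted p = 0.0652). For Agxt, the alanine-glyoxylate aminotransferase, it was -0.57 ± 0.16 (SE, adjusted p = 0.251).

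A list of liver genes induced by glucocorticoids or cAMP was set beside Tat and Tdo2. Of 22 tested members 1 fell, 0 rose and 21 did not pass, and 16 had a log2 fold change below 0, with a median of -0.27. Over all tested genes 0.915% passed and 48.7% were below 0. The called gene was Lpin1, a phosphatidate phosphatase, at 507, 758.5 and 455 on the high-fat arrays, against 1139, 1621 and 1359 on the low-fat arrays. Its log2 fold change was -1.28 ± 0.22 (SE, adjusted p = 0.0325), a call that was lost with any array other than high-fat array 2 left out, at adjusted p-values from 0.0648 to 0.142. The gluconeogenic gene Pck1 had 3625, 2939 and 3525 on the high-fat arrays, against 4802, 6069 and 6486.5 on the low-fat arrays (log2 fold change -0.78 ± 0.15 (SE), adjusted p = 0.0560). Another 6 members of the list lay above 0 without passing, among them G6pc at 0.58 (adjusted p = 0.730) and Klf9 at 0.24 (adjusted p = 0.611). The diets of Klf9 did not overlap, with the high-fat arrays higher. Fkbp5 and Tsc22d3, classical glucocorticoid targets, were at -0.39 and -0.55 with adjusted p-values of 0.729 and 0.779. Tsc22d3 was under the floor on high-fat array 3, at 53.8. No corticosterone level is given for these mice. Among 9 tested transcription factors that act on liver genes, 1 fell, against the 0.915% of all tested genes that passed in either direction. It was the clock output factor Dbp, at 117, 237 and 177 on the high-fat arrays, against 1119, 1162.5 and 939 on the low-fat arrays (log2 fold change -2.65 ± 0.26 (SE), adjusted p = 0.00242).

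**Figure D4:**
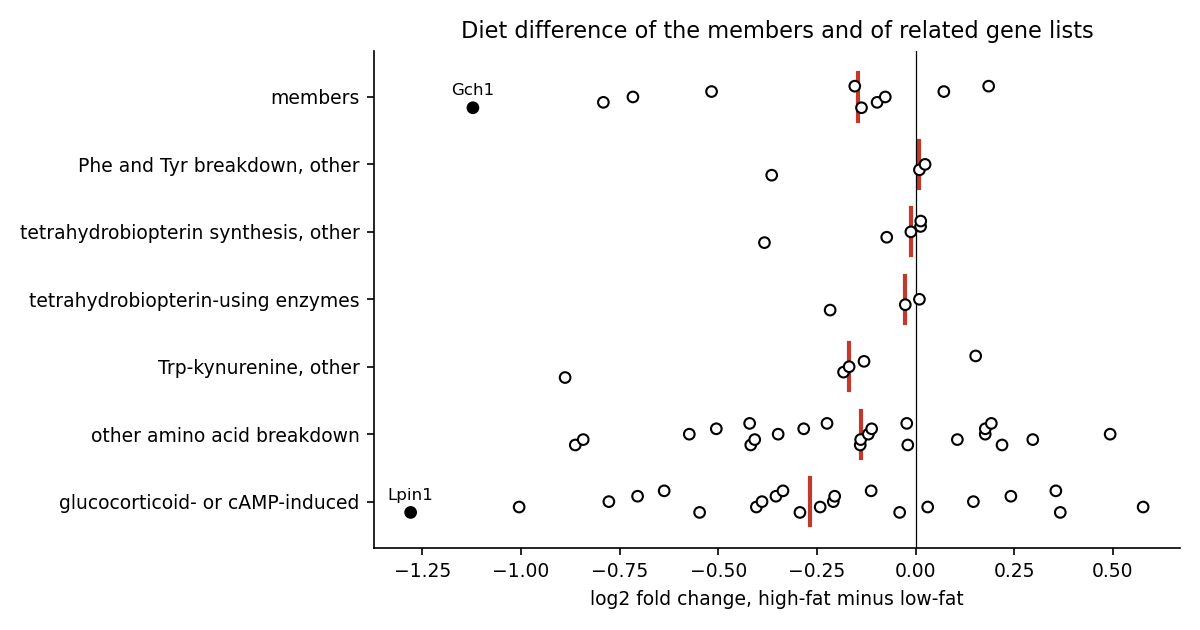
Log2 fold change, high-fat minus low-fat, of the 10 member probe sets and of the tested genes of 6 related lists (1 probe set a gene); filled points are past limma's adjusted p of 0.05 and named, and red lines are medians. Gch1 and Lpin1 are the filled points, and the medians of the lists ran from -0.27 to 0.01.

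The transcripts most like each of the 3 entry enzymes across the 6 arrays were found by the root mean square difference between centred log2 values, over 4648 genes whose SD was at least 0.2. Closest to Gch1 were Ncoa2 at a difference of 0.11, C2 at 0.12, Notch4 at 0.13, Cyp3a25 at 0.16 and Zfp36 at 0.16, where the median gene differed from Gch1 by 0.67. Of these the complement gene C2 was past limma's threshold, with a log2 fold change of -0.94 (adjusted p = 0.0499), while Ncoa2 and Notch4 had high-fat values under the floor. For Notch4 all 3 were under it, at 68.5, 20.0 and 53.9 on the high-fat arrays, against 138.6, 137.8 and 161.8 on the low-fat arrays, so its likeness to Gch1 rests on values set to the floor. For Ncoa2 1 of the 3 was under it, at 47.2. Closest to Tat were Zfp277 at 0.11, Pck1 at 0.12, Ces1g at 0.12, Herpud1 at 0.12 and Gm2a at 0.13, against a median of 0.55, and all 5 missed the threshold. Closest to Tdo2, by its 99269_g_at probe set, were Ifnar2 at 0.07, Wdr20 at 0.09, Ift172 at 0.09, Mia3 at 0.10 and Cuedc1 at 0.10, against a median of 0.44. Tat and Tdo2 99269_g_at differed by 0.19 and Tat and Gch1 by 0.20. With 6 arrays these are descriptions of likeness.

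Markers of hepatocytes and of other cell types were read as a description of the tissue. The 11 tested hepatocyte markers had summed intensities from 265000.2 to 330131 on the high-fat arrays and from 239498 to 334131 on the low-fat arrays. Of the Kupffer cell and macrophage markers 14 were tested and 0 had a log2 fold change below 0, against 48.7% of all tested genes. None of them passed limma's threshold, where 0.915% of all tested genes did, and 4 had an unadjusted p under 0.05, against 9.5% of all tested genes. Their summed intensity was 14085 to 17271 on the high-fat and 10620.0 to 13921 on the low-fat arrays, without overlap. Lymphocyte markers summed to between 949.5 and 1401 on the high-fat and between 862 and 1318 on the low-fat arrays, with Cd8a under the floor throughout. Endothelial markers summed to 4280.3 to 5079.6 on the high-fat and 4085 to 4839 on the low-fat arrays, with overlap. Stellate cell and fibroblast markers summed to 7542 to 9419 on the high-fat and 7019 to 7449 on the low-fat arrays, without overlap. The largest part of each sum was Dcn, at 4705, 4462 and 5501.5 on the high-fat arrays, against 4058, 4039 and 4057 on the low-fat arrays. Dcn was the 1 marker of the 8 tested whose diets did not overlap, against 14.5% of all tested genes. Of the 8, 0 passed limma's threshold and 0 had an unadjusted p under 0.05. The bile duct markers Krt19, Krt7, Epcam and Tff2 were too dim to be tested, and the adipose marker Retn was under the floor on all arrays. Pancreatic acinar markers, which summed to 1938 to 11232 on the high-fat and 2092 to 6489 on the low-fat arrays, overlapped widely between the diets. Red cell markers summed to 10628 to 13193 on the high-fat and 8328 to 12011 on the low-fat arrays. Acute phase transcripts summed to 113134 to 136643 on the high-fat and 96469 to 110513 on the low-fat arrays, without overlap. The part of other cell types and of the acute phase in the values of Gch1, Tat and Tdo2 was not tested.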

How the data were processed

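Per the labels, liver RNA was hybridised to 6 arrays, 3 for each diet, and diet and replicate number were read from the titles. For 12488 probe sets the deposited file gives an intensity on a linear scale per array. The values show that the authors had scaled each array as a whole, since means without the lowest and highest 2% ran only from 499.6 to 499.9. For software and background correction, the sources used here give nothing. The number of arrays limits the precision.

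Gene names came from the platform annotation (10855 probe sets with 1 symbol, 396 with several, 1237 with none), and 10839 were matched by gene ID to RefSeq for GRCm38.p6. The deposited scaling was kept, values under the pooled 30th percentile (68.9) were set to it, and log2 was taken. The 8950 probe sets above it on at least 3 arrays, without the 66 controls, went into the test, limma 3.58.1 under R 4.3.3 (lmFit, then eBayes with an intensity trend in the variance), two-sided, with Benjamini-Hochberg adjustment over all of them and a threshold of 0.05. A listed gene was read by its probe set with the highest mean.

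Members and lists were chosen with earlier results of these arrays known. Named genes are all members, every called gene of a list (otherwise the 2 with the smallest p) and the 5 transcripts most like each entry enzyme. Pck1, Pts, Spr, Th, G6pc, Klf9, Angptl4, Per1, Fkbp5, Tsc22d3, Cdo1 and Dcn were named from the lists after their values were seen. Alternatives covered normalization, floor, filter, variance model, array weights, the replicate block, a Gapdh covariate, suffixes, arrays left out and the threshold. The replicate numbers were not used to pair the arrays in the main test. Deviations from the diet means of same-numbered arrays correlated at 0.07, 0.11 and 0.31. The arrays numbered 3 correlated at 0.31 with each other and at -0.21 to -0.12 with arrays of other numbers. What the arrays numbered 3 share was not tested.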

Additional observations from a re-analysis of the deposited data

How the results depend on the processing

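The fall of Gch1 kept its direction in all 21 alternatives run, and its call in 18 of them. Much of this was fixed in advance. Leaving arrays out could not turn the sign, since every high-fat value lay below every low-fat value. Settings of the floor, the filter and the variance model left the log2 fold change at -1.12. A threshold of 0.10 could not lose the call. The kept direction is therefore no separate support. The number of member probe sets past the threshold, 1 with the settings used here, was 0 with no filter on dim probe sets and 0 without the variance trend. It was 2 after quantile normalization, with the floor at the 50th percentile, with the filter on all 6 arrays, with robust eBayes, with the Gapdh covariate and at an adjusted p of 0.10. With single arrays left out it ran from 0 (without low-fat array 1) to 2 (without high-fat array 1). The second call was Tat, except with the Gapdh covariate, where it was Tdo2 93827_at. The count of member probe sets below 0 ran from 6 to 8. Over all probe sets, 74 passed. That count was 8 with no filter, 20 without the trend, 38 without both arrays numbered 3 and 120 at an adjusted p of 0.10, and with single arrays left out it ran from 26 to 75. The replicate block gave 103 calls, 1 of them a member, and an adjusted p of 0.00475 for Gch1. The block changed no call of a member, but Csad passed under it (adjusted p = 0.0456). High-fat array 1 correlated best with low-fat array 2, so not every array was most like its own number.

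Signs that turned belonged to transcripts that were not called. With single arrays left out, log2 fold changes ran from -0.22 to 0.11 for Fah, from -0.20 to 0.047 for Hgd, from -0.33 to 0.020 for Hpd and from -0.026 to 0.16 for Pcbd1. They ran from -0.14 to 0.035 for Pcbd2, from -0.13 to 0.11 for Got2 and from -0.21 to 0.10 for Nos2. With both arrays numbered 3 left out, Hgd had 0.023 and Nos2 0.12. Got2 had -0.0028 after quantile normalization and -0.016 with the Gapdh covariate, and Nos2 had 0.029 with array weights. Lpin1 lost its call in 8 of 21 alternatives and Dbp in 1, that with no filter. Dropping the filter adds dim probe sets to the test, and the cause of the other changes was not tested.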
